A study of Mus musculus with 30 samples.

Results

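Id2, Gata3, Rora, Tcf7, Tox, Nfil3, Ets1 and Ahr encode transcriptional regulators that steer innate lymphoid cells (ILCs), the family of lymphocytes without rearranged antigen receptors to which natural killer (NK) cells belong. These 8 genes, taken by symbol from the 30587 genes of the deposited table, were described across 30 libraries of sorted NK cells after skin grafting. All 8 passed the filter on low values and were tested. RNA was sequenced in bulk from 10 groups of 3 libraries each, made of 2 recipient models with 5 cell populations per model. The B6 model used C57BL/6 mice of genotype NKp46iCre/iCre.RosamTmG/mTmG, which carried m157tg B2m-/- donor skin and were sampled at day 20. The F1 model used C57BL/6xBalb/c mice of genotype NKp46+/iCre.Rosa+/mTmG, which carried m157tg B2m+/- donor skin and were sampled at day 10.

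Each model gave CD49b+ cells from blood, spleen and the graft, and CD49a+ cells from the graft and from the recipient's own skin. CD49b marks conventional NK cells, whereas CD49a, an integrin subunit that binds collagen, marks tissue-resident NK cells and the related ILC1. Every recipient, including those that gave blood and spleen, carried a Cre recombinase made from the NKp46 locus and the mTmG reporter, and all sorted cells were NKp46-GFP+. The green label stays on in any cell that once made NKp46, so the gate can also hold ILC1 and the NKp46-expressing subset of ILC3. Strain, the number of NKp46 and reporter alleles, the graft and the day all differ between the models, and their parts in any difference between models cannot be told apart. The labels do not say whether the 3 libraries of a group came from separate animals or pools, so p-values measure the spread between these libraries, which may be technical.

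ILCs and NK cells descend from a common lymphoid progenitor through steps that depend on this set of factors. NFIL3, TCF-1 (encoded by Tcf7), TOX and ETS1 act early, and ID2 then blocks the E proteins that drive B and T cell fates. In committed cells GATA3 and RORα (encoded by Rora) sustain ILC2, and the aryl hydrocarbon receptor AHR, which senses diet, microbial and environmental ligands, sustains ILC3 and intraepithelial lymphocytes. In mice, AHR and RORα are also known from ILC1 of the liver.

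On GRCm38 (GENCODE M21) Id2 lies on chromosome 12 at 25093799 to 25097140 on the minus strand and Ahr on chromosome 12 at 35497974 to 35535038, also on the minus strand. Rora lies on chromosome 9 at 68653786 to 69388246 and Ets1 on chromosome 9 at 32636221 to 32757820, both on the plus strand. Nfil3 spans 52967209 to 52981073 of chromosome 13, Gata3 9857078 to 9890034 of chromosome 2, Tcf7 52252371 to 52283014 of chromosome 11 and Tox 6686353 to 6991557 of chromosome 4, all on the minus strand. All 8 are protein-coding genes. Gata3, Rora, Tcf7, Tox and Ets1 each overlap an annotated antisense transcript and Ahr a noncoding RNA on the other strand, and the sources used here do not state whether counting used the strand, so reads of these partners cannot be told apart. Gata3 and Tcf7 also each overlap an annotated gene on the same strand, and Gata3 a protein-coding gene on the other. Id2 and Nfil3 overlap no other annotated gene.

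RefSeq promoters of 300 bases (250 before to 50 after the start site, GRCm38.p6) were available for 5 of the 8 genes. Those of Rora, Nfil3 and Id2, each of which passed the test described below in 2 or more comparisons of skin with spleen, are shown here. They are written 5′ to 3′ on the gene's own strand, from chr9:68653536-68653835 (plus strand), chr13:52980990-52981289 (minus strand) and chr12:25096043-25096342 (minus strand). Capitals mark E-boxes, the sites of the E proteins that ID2 inhibits (CANNTG, the same on both strands), and the core of the AHR site (GCGTG, or CACGC for the other strand).
Rora: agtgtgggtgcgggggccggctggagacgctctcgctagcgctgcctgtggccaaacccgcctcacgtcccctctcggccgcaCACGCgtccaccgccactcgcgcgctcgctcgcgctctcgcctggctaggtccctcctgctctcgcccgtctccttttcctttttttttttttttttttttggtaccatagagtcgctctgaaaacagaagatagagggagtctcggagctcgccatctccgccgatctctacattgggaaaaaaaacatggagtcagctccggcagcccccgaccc
Nfil3: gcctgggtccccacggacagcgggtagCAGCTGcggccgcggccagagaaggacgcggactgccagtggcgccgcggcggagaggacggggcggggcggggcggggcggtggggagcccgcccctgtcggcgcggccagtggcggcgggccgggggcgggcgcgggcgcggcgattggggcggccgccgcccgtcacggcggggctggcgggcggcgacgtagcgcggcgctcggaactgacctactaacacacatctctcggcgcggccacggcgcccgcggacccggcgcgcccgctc
Id2: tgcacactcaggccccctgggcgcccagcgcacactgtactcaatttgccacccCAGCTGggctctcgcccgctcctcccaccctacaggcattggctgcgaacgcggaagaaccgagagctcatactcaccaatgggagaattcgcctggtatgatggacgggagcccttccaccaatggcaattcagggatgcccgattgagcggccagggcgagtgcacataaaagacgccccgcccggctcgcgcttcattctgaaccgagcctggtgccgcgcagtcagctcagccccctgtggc
The Rora promoter holds 1 AHR core and 0 E-boxes, and the Nfil3 and Id2 promoters hold 1 E-box and 0 AHR cores each. Of 32851 RefSeq promoters of this length, 72.3% hold an E-box and 32.4% an AHR core, so neither match is unusual. The Nfil3 window also has the half-site of ROR receptors (AGGTCA, or TGACCT for the other strand, left in lower case), which 16.3% of the promoters hold. GC content was 60.3% for Rora, 81.7% for Nfil3 and 63.3% for Id2. A match describes these letters only and does not show binding.

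Values are the authors' DESeq2-normalized signal. Because they are not divided by transcript length, levels are compared between libraries of 1 gene and not between genes. Sums of the signal ran from 1529124 to 5717946 per library. The 12 blood and spleen libraries were alike in leukocyte content, where 20 pan-leukocyte transcripts, among them Ptprc, stood at 88.3 to 113% of their circulating level, whereas the 18 skin libraries ranged from 10.5 to 94.3%. In 7 skin libraries this level lay more than 2 log2 units under the circulating one, and changes that rest on them are also given without them. They were libraries 1 and 3 of B6 graft CD49a+ cells (10.5 and 18.5%), libraries 1 and 3 of B6 recipient skin (15.1 and 12.7%), library 3 of F1 graft CD49a+ cells (22.7%) and libraries 2 and 3 of F1 recipient skin (18.6 and 13.2%). Without them, B6 graft CD49a+ cells, B6 recipient skin and F1 recipient skin keep 1 library each, and that library is assumed to vary like the other groups. The fitted spread is also smaller without them, so populations that lose no library can gain calls. The labelled cell type was clear in blood and spleen, where the summed signal of 12 NK markers was 12342 to 15430. The same sum was 3805 to 14089 in graft CD49b+ cells, 336 to 7426 in graft CD49a+ cells and 396 to 3620 in recipient skin. Against spleen, 9 of the 12 NK markers fell in B6 graft CD49a+ cells and 8 in F1, and 10 fell in recipient skin in each model. Of all genes, 3.77% fell in B6 graft CD49a+ cells and 4.18% in F1, and 11 and 4.44% in recipient skin. The markers include Itga2, which encodes CD49b, on which the spleen cells were sorted. A fall of Itga2 in CD49a+ cells therefore follows from the sort, and these counts are a description.

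**Figure D1:**
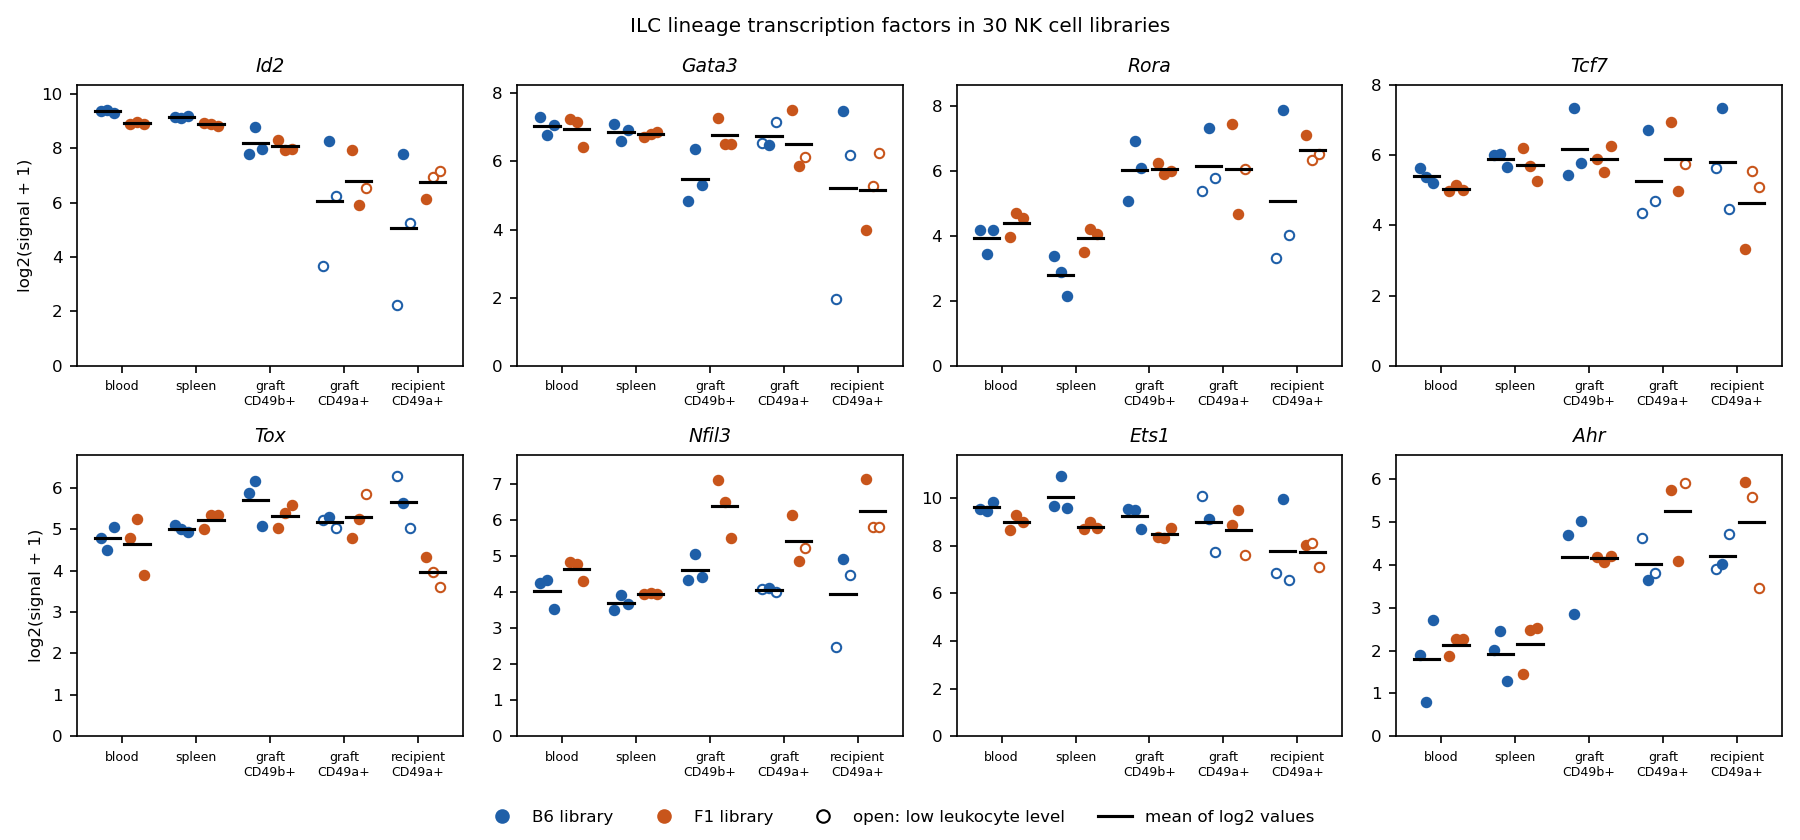
Level of each of the 8 factors in every library as log2(signal + 1), by population and model, with black bars at the mean of 3 libraries and open circles for the 7 skin libraries with a low leukocyte level. Ahr and Rora are higher and Id2 lower in most skin libraries than in blood and spleen, while Nfil3 has a signal of at least 28.5 in all 9 F1 skin libraries.

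Each skin population was compared with the spleen of its model by limma on log2(signal + 1), with 1 mean per group over all 30 libraries. P-values were adjusted by Benjamini-Hochberg over 16045 genes, with a threshold of 0.05. In the B6 model 1 of the 8 factors passed in graft CD49b+ cells (Rora), where 4.07% of all genes did. In B6 graft CD49a+ cells 3 passed (Id2, Rora and Ahr) against 16.3% of all genes, and in B6 recipient skin 4 passed (Id2, Rora, Ets1 and Ahr) against 28.8%. In the F1 model 1 factor passed in graft CD49b+ cells (Nfil3), 1 in graft CD49a+ cells (Ahr) and 3 in recipient skin (Rora, Nfil3 and Ahr), where 12.2, 22.7 and 15.7% of all genes did. Counts of 1 of 8 are near these shares, and nothing is read from them about the set. Ahr, counted in both CD49a+ populations of each model, passed the filter on low values through 17 skin libraries and 0 circulating ones. Its being tested already required a high skin group, so its part in these counts is a description. The 3 comparisons of a model share its spleen libraries. In bulk samples fewer cells of a type and less RNA per cell cannot be told apart.

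**Figure D2:**
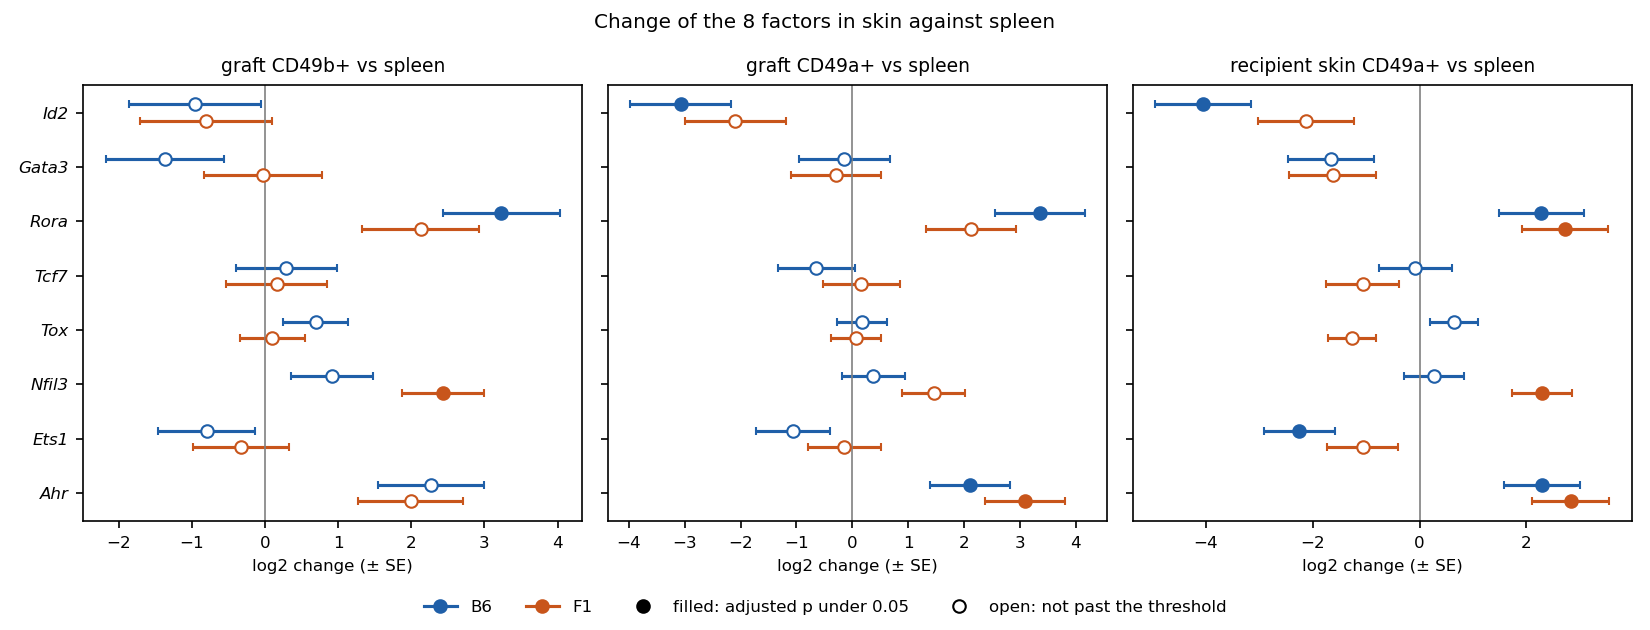
Fitted log2 change of each factor in the 3 skin populations against spleen, with horizontal bars of 1 SE, for B6 (blue) and F1 (orange). Filled points passed an adjusted p of 0.05: Rora in 4 of the 6 comparisons, Ahr in 4, Id2 in 2, Nfil3 in 2 and Ets1 in 1. Ahr passed the filter on low values through skin libraries alone.

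Ahr encodes the ligand-activated aryl hydrocarbon receptor. Its signal was low in the 12 circulating libraries, at 0.748 to 5.62 with a median of 3.43, and 6.22 to 60.4 with a median of 17.4 in the 18 skin libraries. No skin library overlapped the circulating ones. In B6 the 3 graft CD49b+ libraries held 25.2, 6.22 and 31.4, the graft CD49a+ libraries 23.8, 11.5 and 13.1, and recipient skin 13.9, 15.2 and 25.5, against 3.06, 4.48 and 1.46 in spleen. In F1 the corresponding values were 17.3, 15.8 and 17.4 in graft CD49b+ cells, 52.8, 16.0 and 59.5 in graft CD49a+ cells and 60.4, 46.8 and 10.0 in recipient skin, with 1.76, 4.63 and 4.81 in spleen. The highest values stood in CD49a+ libraries of the F1 model, and the 3 F1 graft CD49b+ libraries were close together.

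Ahr rose 8.49-fold in F1 graft CD49a+ cells, by 3.09 ± 0.72 on the log2 scale (mean ± SE; adjusted p = 0.00388). Ahr passed the filter on low values, a signal of 10 or more in 3 libraries, through 17 skin libraries and 0 circulating ones, so that its being tested already required a high skin group. With no filter the adjusted p was 0.00677 here, 0.0167 in F1 recipient skin, 0.0327 in B6 recipient skin and 0.0713 in B6 graft CD49a+ cells. The F1 graft CD49a+ call held in every alternative setting run and with any of the 6 libraries left out, and the change was 2.75 without the low-leukocyte library (adjusted p = 0.00888). Ahr rose 7.1-fold in F1 recipient skin (log2 2.83 ± 0.72, adjusted p = 0.00933) and 4.89-fold in B6 recipient skin (log2 2.29 ± 0.72, adjusted p = 0.0196). In B6 graft CD49a+ cells it rose 4.3-fold (log2 2.11 ± 0.72, adjusted p = 0.0441). Quantile normalization ended these last 3 calls, with changes of 2.13, 1.41 and 1.14 (adjusted p = 0.066, 0.158 and 0.323), and so did a fit of only the groups compared (adjusted p = 0.0793, 0.0754 and 0.0537). A pseudocount of 10 ended both B6 calls, with changes of 1.10 in recipient skin and 0.98 in the graft (adjusted p = 0.0596 and 0.123), and a filter of 50 the graft call (adjusted p = 0.0732). The graft CD49b+ differences of 2.27 in B6 and 1.99 in F1 did not pass (adjusted p = 0.0674 and 0.0663), although all 3 libraries were above spleen in each model.

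Single libraries decided several of these calls. In F1 recipient skin the adjusted p was 0.0535 without spleen library 1, 0.0592 without skin library 1 and 0.0525 without skin library 2, and in B6 recipient skin it was 0.0833 without spleen library 3 and 0.0782 without skin library 3. The B6 graft CD49a+ call was lost without any 1 of spleen libraries 1 to 3 (adjusted p = 0.0984, 0.0637 and 0.157) or of graft libraries 1 and 3 (0.166 and 0.0972). In B6 graft CD49b+ cells, by contrast, Ahr passed when library 2 was left out (log2 2.94, adjusted p = 0.0133). With the low-leukocyte libraries removed, the change was 1.72 in B6 graft CD49a+ cells (adjusted p = 0.303), 2.09 in B6 recipient skin (adjusted p = 0.163) and 3.78 in F1 recipient skin (adjusted p = 0.00414), and the graft CD49b+ differences passed (adjusted p = 0.02 in B6 and 0.026 in F1).

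A list of genes tied to AHR activity was read beside its level: the targets Cyp1a1, Cyp1b1, Ahrr, Tiparp and Nqo1, and Arnt, the partner with which AHR binds DNA. Of these 6 genes, 4 passed the filter on low values. Going from graft CD49b+ to graft CD49a+ cells to recipient skin, 2, 3 and 3 of the 4 rose in F1. There 10.6, 18.5 and 11.3% of all genes rose. The counts for B6 were 0, 1 and 2 in this order, beside 3.7, 12.5 and 17.9% of all genes. In the 6 comparisons 0 of the 4 fell. Median changes were 2.49, 3.07 and 3.26 in F1 and 1.79, 2.02 and 1.77 in B6, beside medians over all genes of 0.26, 0.39 and 0.35 in F1 and 0.33, 0.44 and 0.40 in B6. Cyp1b1, counted in both F1 CD49a+ populations and in B6 recipient skin, passed the filter through 7 skin libraries alone and had to differ, so the counts and medians are a description. In the fit without the low-leukocyte libraries, 2, 0 and 1 of the 4 rose in B6 and 3, 3 and 4 in F1.

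Ahrr, the repressor that AHR induces as its own brake, was at 7.06, 11.2 and 5.32 in F1 spleen and at 57.4, 69.7 and 145 in F1 graft CD49a+ cells, a 9.91-fold rise (log2 3.31 ± 0.86, adjusted p = 0.00796). The change was 2.91 without the low-leukocyte library (adjusted p = 0.00104). Ahrr rose 9.23-fold in B6 graft CD49a+ cells (adjusted p = 0.0138), from 11.3, 15.2 and 9.77 to 630, 34.9 and 73.2. Library 1 of the B6 graft was far above the other two, and it also had the lowest leukocyte level and a keratinocyte sum of 5062; on library 2 alone the change in Ahrr was 1.48 and did not pass (adjusted p = 0.233). Tiparp, whose product restrains AHR, was at 8.57, 7.39 and 8.1 in F1 spleen. It rose 7.12-fold in F1 graft CD49b+ cells, to 45.6, 107 and 51.4 (adjusted p = 0.00617), and 8.5-fold in F1 recipient skin, to 108, 85.4 and 46.6 (adjusted p = 0.00272; log2 3.09, and 3.6 with an adjusted p of 0.000741 without the low-leukocyte libraries). In B6 graft CD49a+ cells Tiparp was at 89.1, 51.4 and 44.3 against 15, 43.5 and 8.94 in spleen, which did not pass (adjusted p = 0.0792, and 0.239 on library 2 alone). Cyp1b1, a cytochrome P450 of the AHR response, was listed at 0 in all 3 F1 spleen libraries and at 2.36, 29.4 and 9.4 in F1 graft CD49a+ cells, the last of which was the low-leukocyte library.

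**Figure D3:**
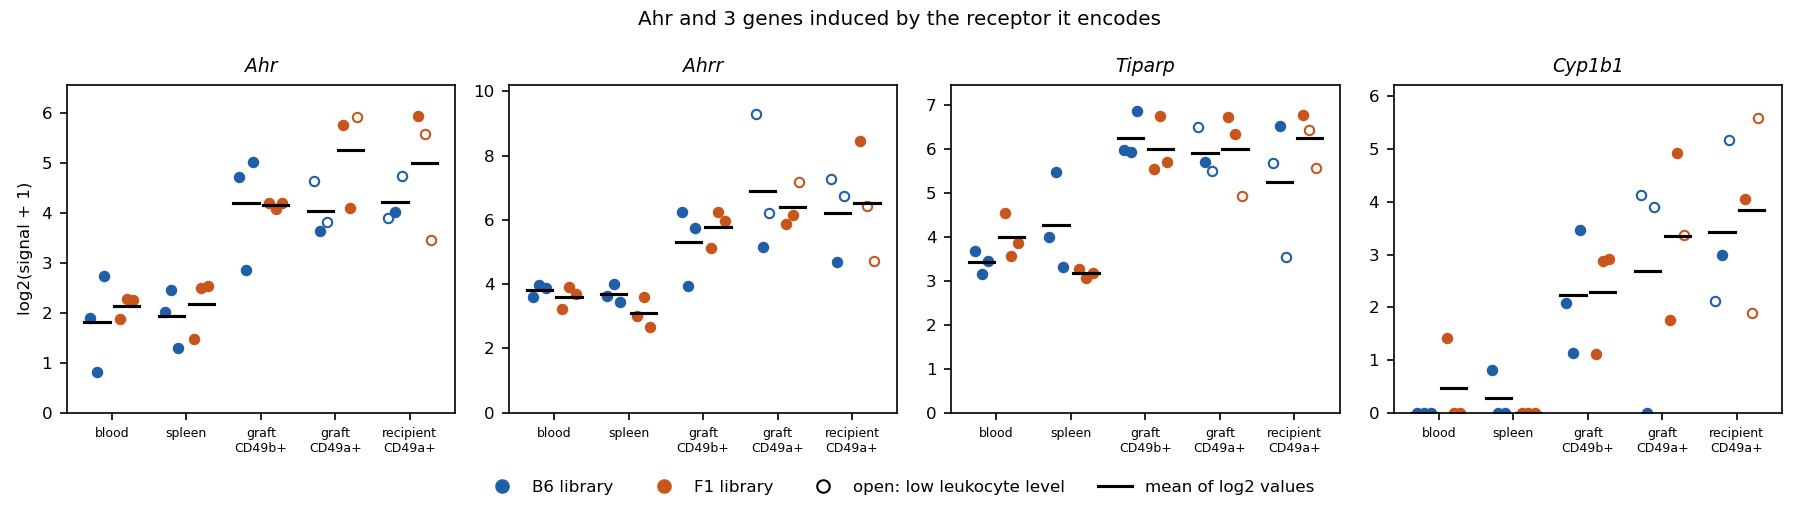
Level of Ahr and of Ahrr, Tiparp and Cyp1b1, which the receptor induces, in every library as log2(signal + 1), with bars at the mean of 3 libraries and open circles for low-leukocyte libraries. All 18 skin libraries have more Ahr than any circulating library, and Cyp1b1 is at or near 0 in blood and spleen.

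Keratinocytes, fibroblasts and macrophages of the skin also use AHR. Keratinocyte markers summed to 6.08 to 110 in circulating libraries, 43.8 to 5062 in the 6 B6 CD49a+ skin libraries and 29.3 to 2059 in the 6 F1 ones. Of the 10 keratinocyte markers tested, 9 rose in the CD49a+ cells of the B6 graft and 4 in those of B6 recipient skin, while the F1 counts were 0 and 3. Macrophage and monocyte markers summed to 277 to 1007 in circulating libraries and 578 to 2849 in F1 graft CD49a+ cells, where 7 of 10 rose, and reached 6403 in F1 recipient skin library 1. Of the 10 fibroblast markers, 6 rose in B6 graft CD49a+ cells and 4 in F1. Many of these markers, among them Dsp, Dcn and Mrc1, passed the filter on low values through skin libraries alone and had to differ. These marker counts are therefore a description. In the CD49a+ libraries with the highest leukocyte levels, B6 graft library 2 (73.1%, keratinocyte sum 49.4) and B6 recipient skin library 2 (78.4% and 43.8), Ahr was at 11.5 and 15.2, above every circulating library. The same libraries had macrophage and monocyte sums of 1041 and 609 and dendritic cell and MHC class II sums of 1473 and 1863, the second the highest of the 30. The part of other skin cells in the Ahr and target values was not tested.

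Rora encodes RORα, a nuclear receptor that ILC2 need and that also runs in the circadian clock. Its signal was 3.4 to 25.2 with a median of 15.1 in the circulating libraries and 8.97 to 236 with a median of 66.5 in skin. In B6 it was at 33.1, 120 and 67.5 in graft CD49b+ cells, 40.8, 158 and 54.6 in graft CD49a+ cells and 8.97, 236 and 15.4 in recipient skin, with 9.37, 6.47 and 3.4 in spleen. All graft libraries were above spleen, but in recipient skin library 1 lay within the spleen range and library 2 held the highest value of all 30. In F1, Rora was at 75.6, 59.5 and 62.9 in graft CD49b+ cells, 174, 24.6 and 65.4 in graft CD49a+ cells and 136, 80.7 and 91.1 in recipient skin, all above the 10.4, 17.6 and 15.7 of spleen. The 6 skin groups could not be ordered, since each overlapped its neighbour, and all 6 means lay above those of the 4 circulating groups.

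Rora rose 10.3-fold in B6 graft CD49a+ cells (log2 3.36 ± 0.80, adjusted p = 0.00713), and this call held with any of the 6 libraries left out. It rose 9.41-fold in B6 graft CD49b+ cells (log2 3.23 ± 0.80, adjusted p = 0.0236), 4.84-fold in B6 recipient skin (log2 2.28 ± 0.80, adjusted p = 0.0353) and 6.61-fold in F1 recipient skin (log2 2.72 ± 0.80, adjusted p = 0.0226). Changes of 2.13 in F1 graft CD49b+ and 2.13 in F1 graft CD49a+ cells did not pass (adjusted p = 0.0801 and 0.0557), although the groups did not overlap. With blood as the reference, Rora changed by 2.22 in B6 graft CD49a+ cells (adjusted p = 0.0525), 2.09 in B6 graft CD49b+ cells (0.115), 1.13 in B6 recipient skin (0.281) and 2.26 in F1 recipient skin (0.0654), and none of these passed. Rora was lower in B6 spleen than in B6 blood in all 3 libraries (17.2, 10.0 and 17.3 in blood), a difference of -1.14 ± 0.80 that did not pass (adjusted p = 1).

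The other 3 calls of Rora depended on single libraries and on the processing. Quantile normalization ended all 3, with changes of 2.71 in B6 graft CD49b+ cells, 1.43 in B6 recipient skin and 2.6 in F1 recipient skin (adjusted p = 0.124, 0.227 and 0.058). A pseudocount of 10 ended both B6 calls (adjusted p = 0.0839 and 0.0819), and the B6 recipient skin call was also lost with no filter (adjusted p = 0.0533) and with library weights (log2 1.65, adjusted p = 0.111). The B6 graft CD49b+ call was lost without spleen library 1, 2 or 3 (adjusted p = 0.0642, 0.0631 and 0.117) and without graft library 1 or 3 (0.0538 and 0.0935). In B6 recipient skin the change fell to 0.87 without skin library 2 (adjusted p = 0.3), and without spleen library 1, 2 or 3 the adjusted p was 0.0513, 0.0706 and 0.125. For F1 recipient skin the adjusted p was 0.0824 and 0.0558 without spleen library 1 or 3, and 0.0841 and 0.0536 without skin library 1 or 2. In F1 graft CD49a+ cells Rora passed when library 2 was left out (log2 2.82, adjusted p = 0.0291). That library had a neutrophil sum of 10864 and an erythroid sum of 41338, the highest of the 30.

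Leaving out the low-leukocyte libraries did not shrink the Rora changes, which were then 4.51 in B6 graft CD49a+ cells (adjusted p = 0.00464), 5.08 in B6 recipient skin (adjusted p = 0.000646) and 3.16 in F1 recipient skin (adjusted p = 0.00679). These 3 values rest on 1 library each. In the F1 grafts, 2.13 passed for CD49b+ cells (adjusted p = 0.011) and 2.13 for CD49a+ cells (adjusted p = 0.0199) in that fit, in which the spread was smaller.

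Nfil3 encodes a bZIP repressor needed for the earliest NK and ILC progenitors and linked, like RORα, to the clock. In F1 the signal was 14.5, 14.7 and 14.4 in spleen, 139, 90.8 and 44.6 in graft CD49b+ cells, 69.5, 28.5 and 36.3 in graft CD49a+ cells and 140, 55.3 and 55.2 in recipient skin. All 9 F1 skin libraries were above the 18.8 to 27.7 of F1 blood. In B6 the skin libraries held 4.58 to 32.2 with a median of 19.4, against 10.3 to 19.3 in circulating cells, and the ranges overlapped. The 3 B6 graft CD49a+ libraries, at 16.2, 16.3 and 15, were the most alike of the skin groups.

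Nfil3 rose 5.38-fold in F1 graft CD49b+ cells (log2 2.43 ± 0.56, adjusted p = 0.00694) and 4.9-fold in F1 recipient skin (log2 2.29 ± 0.56, adjusted p = 0.0078). The F1 graft CD49a+ difference of 1.46 ± 0.56 did not pass (adjusted p = 0.0611). With blood as the reference the first 2 were 1.74 (adjusted p = 0.0551) and 1.6 (adjusted p = 0.0621). The recipient skin call was lost without skin library 1 (log2 1.85, adjusted p = 0.0544), whose macrophage sum was 6403, and the graft CD49b+ call held with each library left out. Without the low-leukocyte libraries Nfil3 passed in both F1 CD49a+ populations, at 1.55 in the graft (adjusted p = 0.0173) and 3.18 in recipient skin (adjusted p = 0.000639). In B6 the changes were 0.92, 0.38 and 0.27, and none passed (adjusted p = 0.349, 0.666 and 0.747; 0.92, 0.42 and 1.23 without the low-leukocyte libraries, adjusted p = 0.116, 0.768 and 0.205). Tested against each other, the F1 and B6 changes differed by 1.51 ± 0.80 for the CD49b+ and 1.08 ± 0.80 for the CD49a+ graft population and by 2.03 ± 0.80 for recipient skin, and none of these differences passed (adjusted p = 1, 1 and 0.654). With the low-leukocyte libraries removed, these differences were 1.51, 1.14 and 1.95 (adjusted p = 0.516, 0.581 and 0.155).

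Clock genes tied to Nfil3 and Rora were read as a list. Of 9 tested genes, 2 rose in B6 graft CD49a+ cells, Nr1d2 and Per1, and 1 in each recipient skin, Clock in B6 and Per1 in F1. In either graft CD49b+ population and in F1 graft CD49a+ cells 0 passed. Of all genes, 3.7, 12.5 and 17.9% rose in B6 graft CD49b+, graft CD49a+ and recipient skin cells, and 10.6, 18.5 and 11.3% in F1. With 9 genes tested, nothing is read from these counts about the list. Median changes of the list were 0.84, 1.26 and 1.13 in B6 graft CD49b+, graft CD49a+ and recipient skin cells and 0.27, 0.57 and 0.77 in F1, beside the medians over all genes given with the AHR targets. Per1, a core clock gene that glucocorticoids and cell stress also induce, was at 214, 303 and 62.3 in B6 graft CD49a+ cells against 26.3, 37.6 and 45.8 in spleen (adjusted p = 0.0353). In F1 recipient skin Per1 was at 91.9, 50.5 and 197 against 16.7, 17.2 and 16.4 (adjusted p = 0.0163). Per1 changed by 3.05 and 2.39 in these populations without the low-leukocyte libraries (adjusted p = 0.00239 and 0.00194). Nr1d2, a repressor that competes with RORα for its DNA sites, stood at 386, 50.3 and 26.9 in B6 graft CD49a+ cells against 15.8, 13.6 and 20.7 in spleen (adjusted p = 0.0285), and the highest value was in the library with the lowest leukocyte level. On library 2 alone Nr1d2 changed by 1.55 (adjusted p = 0.109), and Clock in B6 recipient skin, at 1.38 with all libraries, by 1.67 (adjusted p = 0.0614).

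Id2 encodes the inhibitor of DNA binding that every ILC and NK cell requires. In circulating cells it was even within each group, with 566, 545 and 572 in B6 spleen, 662, 672 and 626 in B6 blood, 479, 478 and 453 in F1 spleen and 477, 496 and 477 in F1 blood. All B6 circulating values lay above all F1 ones. In the grafts it was at 219, 440 and 250 in B6 CD49b+ cells, 11.7, 309 and 75.3 in B6 CD49a+ cells, 314, 242 and 251 in F1 CD49b+ cells and 242, 58.8 and 92.5 in F1 CD49a+ cells. The B6 recipient skin libraries held 3.67, 217 and 37.2 and the F1 ones 69.2, 123 and 142. All 18 skin libraries lay under all 12 circulating ones.

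Id2 fell by 3.07 ± 0.90 on the log2 scale in B6 graft CD49a+ cells (adjusted p = 0.0223) and changed by -4.05 ± 0.90 in B6 recipient skin (adjusted p = 0.00244). The differences of -2.09 in F1 graft CD49a+ cells and -2.13 in F1 recipient skin did not pass (adjusted p = 0.0912 and 0.101), nor did -0.96 and -0.81 in graft CD49b+ cells of B6 and F1 (adjusted p = 0.561 and 0.594). The B6 graft call was lost without spleen library 1, 2 or 3 (adjusted p = 0.0647, 0.0557 and 0.065) and without graft library 1 (log2 -1.87, adjusted p = 0.188) or 3 (log2 -3.16, adjusted p = 0.0633). The B6 recipient skin call held with each library left out. A fit of only the groups compared ended both calls (adjusted p = 0.0898 in the graft and 0.079 in recipient skin), and scaling to the same total that in the graft (log2 -2.42, adjusted p = 0.0587).

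In each B6 skin group Id2 was highest in the library with the highest leukocyte level. In F1 recipient skin the order was the opposite, with Id2 at 69.2, 123 and 142 and leukocyte levels of 40.6, 18.6 and 13.2%. F1 graft CD49a+ cells held 242, 58.8 and 92.5 at leukocyte levels of 44.8, 32.9 and 22.7%. In the 7 low-leukocyte libraries Id2 was 3.67 to 142 with a median of 75.3, and in the other 11 skin libraries 58.8 to 440 with a median of 242. Without those 7 the change was -0.86 in B6 graft CD49a+ cells (adjusted p = 0.378) and -1.36 in B6 recipient skin (adjusted p = 0.106). In F1 it then passed at -1.97 in graft CD49a+ cells (adjusted p = 0.00219) and at -2.75 in recipient skin (adjusted p = 0.000757), where 1 library remained. On a scale that sets the 20 pan-leukocyte transcripts equal in all libraries, the leukocyte scale, Id2 changed by -1.04 in B6 graft CD49a+ cells (adjusted p = 0.213) and by -2.1 in B6 recipient skin (adjusted p = 0.019). On the same scale it changed by -0.57 and -0.03 in the F1 CD49a+ populations and by -0.43 and 0.21 in the graft CD49b+ cells of B6 and F1 (adjusted p = 0.575, 0.976, 0.865 and 0.9).

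**Figure D4:**
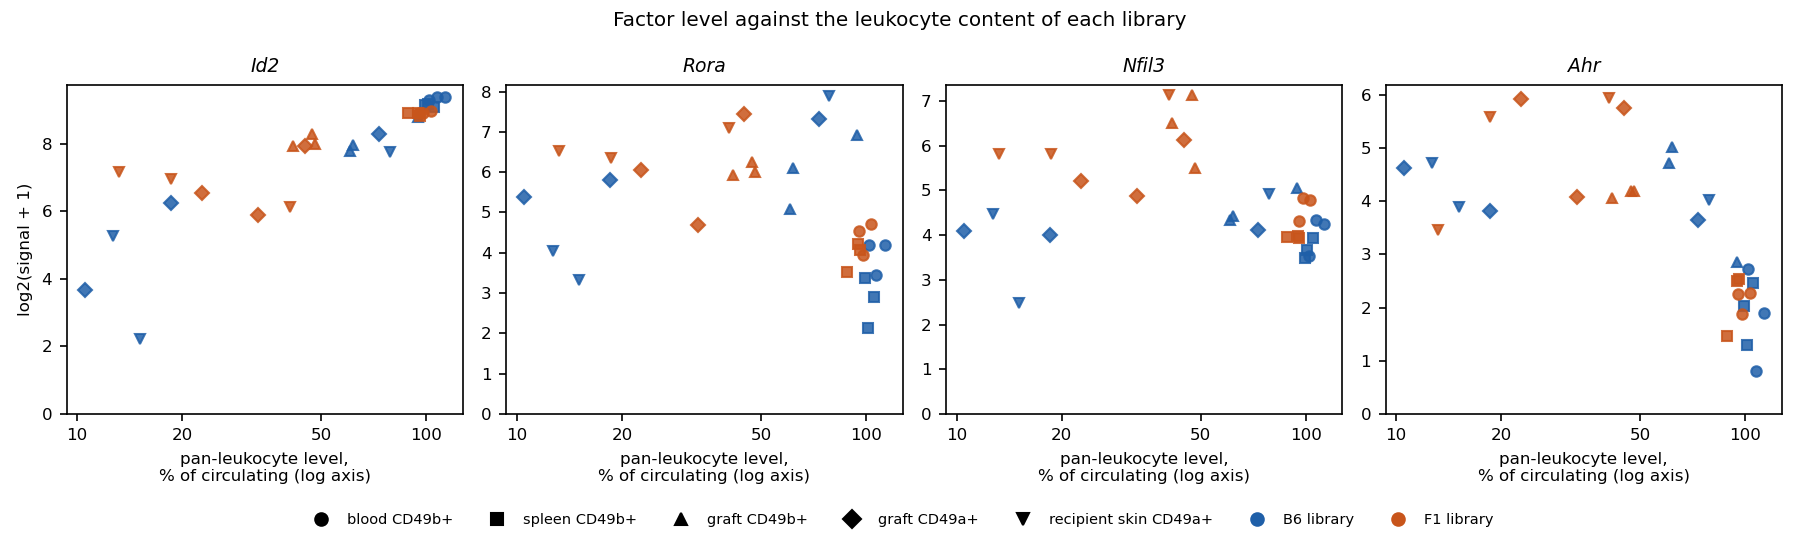
Level of Id2, Rora, Nfil3 and Ahr as log2(signal + 1) against the pan-leukocyte level of the same library in percent of the circulating libraries (log axis), with shapes for populations and colours for models. Id2 is high at the right, where leukocyte transcripts are plentiful, while Ahr is lowest there and Rora is highest in the B6 recipient skin library with a leukocyte level of 78.4%.

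E proteins, the partners that ID2 blocks, and the other Id genes were read from a list of 5. In the 6 comparisons with spleen 0 of the 5 fell and Tcf12 alone rose, in B6 recipient skin, where this E protein gene was at 269, 42.9 and 105 against 36.6, 17.4 and 23.1 (log2 2.08 ± 0.66, adjusted p = 0.0217). Tcf12 changed by 0.78 there without the low-leukocyte libraries and did not pass (adjusted p = 0.566). The highest and lowest of those Tcf12 values stood in the library with the lowest Id2 and the library with the highest. Id3 ranged from 1.1 to 30.2 in graft CD49b+ cells and reached 303 in F1 recipient skin library 2, against 1.38 to 10.1 in spleen, and did not pass in any comparison with spleen.

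Ets1, which NK cell development and survival require, was at 798, 1931 and 753 in B6 spleen and 114, 996 and 94.0 in B6 recipient skin. It fell by 2.25 ± 0.66 there (adjusted p = 0.0142), although skin library 2 lay above spleen libraries 1 and 3. Spleen library 2 also had the highest B cell marker sum of the 3, at 322 against 58 and 182, and the part of B cells, which use Ets1 too, was not tested. The call was lost without spleen library 2 (log2 -1.81, adjusted p = 0.0774) and without skin library 1 or 3 (log2 -1.77 and -1.64, adjusted p = 0.0897 and 0.105). With the low-leukocyte libraries removed, the change was -0.08 (adjusted p = 0.952), and on the leukocyte scale -0.22 (adjusted p = 0.8). Scaling to the same total (log2 -1.08, adjusted p = 0.156) and a fit of only the groups compared (adjusted p = 0.163) also ended the call. In F1, Ets1 was at 411, 505 and 423 in spleen and 259, 272 and 135 in recipient skin, lower in all 3, with a change of -1.07 that did not pass (adjusted p = 0.265; -0.78 without the low-leukocyte libraries, adjusted p = 0.213). Graft CD49b+ and CD49a+ cells differed from spleen by -0.80 and -1.06 for B6 and by -0.33 and -0.14 for F1 (adjusted p = 0.504, 0.266, 0.789 and 0.898). In the fit without the low-leukocyte libraries, the CD49a+ differences were -0.92 for B6 and 0.39 for F1 (adjusted p = 0.293 and 0.461).

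Gata3, the master factor of ILC2 that NK cells also carry, did not pass in any comparison with spleen. In B6 it was at 135, 96.8 and 120 in spleen, 27.6, 81.2 and 38.4 in graft CD49b+ cells, 92.8, 88.3 and 143 in graft CD49a+ cells and 2.93, 179 and 71.5 in recipient skin. The B6 graft CD49b+ libraries were all under spleen (log2 -1.37 ± 0.81, adjusted p = 0.333), whereas recipient skin held both the lowest value and one above every spleen library (log2 -1.66, adjusted p = 0.12; 0.62 on library 2 alone, adjusted p = 0.595). In F1 it was at 105, 111 and 115 in spleen, 154, 90.1 and 90.2 in graft CD49b+ cells, 182, 57.4 and 69.5 in graft CD49a+ cells and 14.8, 37.6 and 74.6 in recipient skin, where all 3 were lower (log2 -1.63 ± 0.81, adjusted p = 0.165).

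T cells also use Gata3, Tcf7 and Ets1, and the markers of these cells summed to 119 to 227 in circulating and 127 to 421 in skin libraries. Of the 10 T cell markers tested, 0, 1 and 1 rose in B6 graft CD49b+, graft CD49a+ and recipient skin cells and 2 in each F1 skin population, led by Cd8a. In the same order 3.7, 12.5 and 17.9% of all genes rose in B6 and 10.6, 18.5 and 11.3% in F1. Cd8a passed the filter on low values through 17 skin libraries alone and had to differ, so these counts are a description. The part of T cells in the values of these 3 factors was not tested.

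Removing libraries changed the Gata3 calls. Without B6 recipient skin library 2 the change there was -2.79 (adjusted p = 0.00587), and Gata3 was then 2.65 higher in graft CD49a+ cells than in recipient skin (adjusted p = 0.0378). In the same fit Rora and Ets1 were also higher in the graft, by 2.49 and 2.27 (adjusted p = 0.0233 and 0.0149). With the low-leukocyte libraries removed, Gata3 passed at -1.37 in B6 graft CD49b+ cells (adjusted p = 0.0283) and at -2.81 in F1 recipient skin (adjusted p = 0.00172), the second resting on 1 library with a macrophage sum of 6403.

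Tcf7 encodes TCF-1, a Wnt-pathway factor that is high in less mature NK cells. It was at 63.2, 64.4 and 49.2 in B6 spleen, 42.4, 163 and 53.3 in graft CD49b+ cells, 19.3, 104 and 25.0 in graft CD49a+ cells and 48.5, 161 and 21.2 in recipient skin. In each of these 3 skin groups library 2, which had the highest leukocyte level, held the highest Tcf7 value and the others lay within or under the spleen range. In F1 it was at 73.1, 50.9 and 37.2 in spleen, 57.9, 44.7 and 75.6 in graft CD49b+ cells, 122, 30.3 and 52.4 in graft CD49a+ cells and 9, 45.7 and 33.0 in recipient skin. Changes against spleen ran from -1.07 to 0.29 and none passed (adjusted p from 0.285 to 0.942). On library 2 alone the B6 CD49a+ changes were 0.82 for the graft and 1.44 for recipient skin, from -0.64 and -0.08, and did not pass (adjusted p = 0.56 and 0.208). Without the low-leukocyte libraries Tcf7 passed at -2.4 in F1 recipient skin (adjusted p = 0.0117), on library 1 alone. Spleen was above blood in all libraries of both models, by 0.50 in B6 and 0.68 in F1 (adjusted p = 1 for each).

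Some genes that accompany Tcf7 in less mature lymphocytes were read beside it. Ccr7, the lymph node homing receptor, rose in both F1 graft populations and fell in B6 recipient skin. It was at 96.4, 99.6 and 146 in F1 graft CD49b+ cells and 87.6, 19.8 and 26.5 in F1 graft CD49a+ cells. Spleen held 5.73, 0 and 0, and no graft library overlapped it (log2 5.90 ± 0.90 and 4.29 ± 0.90, adjusted p = 0.000407 and 0.00177). Ccr7 passed the filter on low values through 10 skin libraries and 1 circulating one. Its being tested already required high skin libraries, so its rises are a description. In B6 recipient skin it was at 4.34, 0 and 0 against 3.86, 25.5 and 9.75 in spleen, with overlapping ranges (log2 -2.67 ± 0.90, adjusted p = 0.0279). With the low-leukocyte libraries removed, Ccr7 changed by -3.48 there (adjusted p = 0.0517) and by 4.51 in F1 graft CD49a+ cells (adjusted p = 0.0013). Lef1, which encodes the factor most closely related to TCF-1, was at 45.2, 33.8 and 77.4 in F1 graft CD49a+ cells against 363, 58.4 and 577 in spleen (log2 -2.21 ± 0.78, adjusted p = 0.0422), where spleen library 2 lay within the graft range; the change was -2.53 without graft library 3 (adjusted p = 0.0102). Il7r, the IL-7 receptor chain shared by most ILCs, was at 103 in B6 graft CD49a+ library 2 and 117 in B6 recipient skin library 2, and at 5 to 17.8 in the other libraries of these groups.

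Tox, a chromatin-binding factor needed for NK and ILC progenitors, was at 33.3, 31.0 and 29.3 in B6 spleen and at 31.5 to 76.2 in the 9 B6 skin libraries. In F1 it was at 31.3, 39.2 and 39.7 in spleen, 26.6 to 57.0 in the 6 graft libraries and 19.0, 14.6 and 11.2 in recipient skin. F1 recipient skin was thus under every F1 spleen and graft library, with a change against spleen of -1.27 ± 0.45 that did not pass (adjusted p = 0.0541; -0.91 without the low-leukocyte libraries, adjusted p = 0.16). Graft CD49a+ cells of F1 were 1.34 ± 0.45 above recipient skin (adjusted p = 0.344), and the F1 change in recipient skin differed from the B6 change by -1.91 ± 0.64 (adjusted p = 0.558). In the fit without the low-leukocyte libraries, these differences were 0.70 (adjusted p = 0.549) and -1.54 (adjusted p = 0.186).

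Other comparisons between populations gave no call among the 8 genes by limma. For graft CD49a+ against graft CD49b+ cells, 0 of 8 passed in B6 and 0 in F1, where 0.0125 and 0.00623% of all genes did. At an unadjusted p under 0.05, 1 did in B6, Id2 (11.7, 309 and 75.3 against 219, 440 and 250, log2 -2.11 ± 0.90, adjusted p = 0.68), and 0 in F1. Rora differed by 0.13 ± 0.80 in B6 and 0.00 ± 0.80 in F1, and Ahr by -0.16 ± 0.72 and 1.09 ± 0.72. Without the low-leukocyte libraries Id2 differed by 0.10 in B6 (adjusted p = 0.986), Rora by 1.28 and 0.01 and Ahr by -0.55 and 0.76, and none of these passed. At this spread smaller differences were not detectable.

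For graft CD49a+ cells against recipient skin, 0 of 8 passed in either model, where 0.224% of all genes did in B6 and 0.0249% in F1. At an unadjusted p under 0.05, 0 did in B6 and 1 in F1, Tox. In the fit without the low-leukocyte libraries, 2 passed in F1, Gata3 at 2.71 and Tcf7 at 2.63 (adjusted p = 0.0122 and 0.0317), against recipient skin library 1 alone. Spleen against blood also gave 0 of 8 in each model, with 0 at an unadjusted p under 0.05, and 0.00623% of all genes passed in B6 and 0.00623% in F1. Between the circulating cells of the models 0 of 8 passed, against 0.343% of all genes, and 0 did at an unadjusted p under 0.05. Ets1 was nearest, at 403 to 618 in F1 and 702 to 1931 in B6 with no overlap, a difference of -0.94 ± 0.47 (adjusted p = 1). Id2, at 453 to 496 in F1 and 545 to 672 in B6, did not overlap either, with a difference of -0.34 ± 0.64. In a limma fit of only the groups compared both passed (adjusted p = 0.0426 for Ets1 and 0.0015 for Id2).

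Differences between the models in the change against spleen gave 0 of 8 in graft CD49b+ cells, graft CD49a+ cells and recipient skin, where 0, 0.00623 and 0.0125% of all genes passed. The same held for the difference between the models in graft CD49a+ against graft CD49b+ cells (0 of 8, with 0.00623% of all genes). At an unadjusted p under 0.05, 2 of 8 did in recipient skin, Tox and Nfil3, and 0 in the other 3. Library weights and a fit on the groups compared called 0 of 8 in these 4 as well. In the fit without the low-leukocyte libraries, Gata3 and Tcf7 passed for recipient skin, where each model keeps 1 library.

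**Figure D5:**
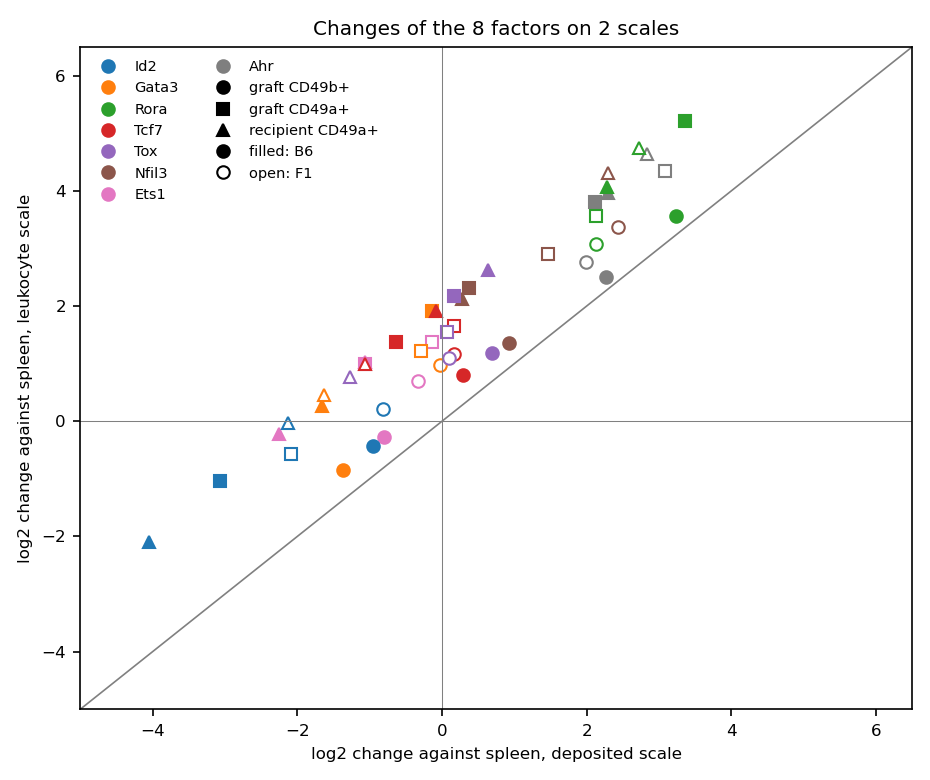
Log2 change of the 8 factors against spleen on the deposited scale (x axis) and on the leukocyte scale (y axis), coloured by gene, with shapes for populations and filled symbols for B6. All points lie above the diagonal, because the skin libraries hold fewer leukocyte transcripts than spleen, and Rora, Ahr and the F1 Nfil3 values are positive on both scales while Id2 is at or under 0.21.

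The scale changed calls against spleen of Id2, Ets1, Rora, Nfil3, Tox and Tcf7. The B6 calls of Id2 in the graft and of Ets1 in recipient skin were lost on the leukocyte scale, as given above. Rora was called in all 6 comparisons with spleen on the leukocyte scale, with changes of 3.08 to 5.22 (adjusted p from 1.06e-05 to 0.00814). Ahr was called there in all 4 CD49a+ comparisons, with changes of 3.81 to 4.65 (adjusted p from 0.00119 to 0.00509), and not in graft CD49b+ cells (adjusted p = 0.279 in B6 and 0.0751 in F1). Nfil3 was called in 5 of 6 on that scale, including 2.31 and 2.13 in the B6 CD49a+ populations (adjusted p = 0.0146 and 0.0204). Tox changed by 2.18 and 2.63 in the B6 CD49a+ populations on that scale (adjusted p = 0.0214 and 0.00712), against 0.17 and 0.64 on the deposited one. Tcf7 turned direction in B6 recipient skin, from -0.08 to 1.91 (adjusted p = 0.0291). The leukocyte scale multiplies all genes of a library by 1 factor, so genes in skin move up together against spleen. The calls gained on it and the turn of Tcf7 are therefore not particular to these factors. The share of all genes called on that scale is not given.

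Among other factors of the NK and ILC lineages more fell than rose in CD49a+ cells and, without the low-leukocyte libraries, in graft CD49b+ cells as well. Of 29 listed, 25 were tested, and 0 rose and 9 fell in B6 graft CD49a+ cells, 1 rose and 9 fell in B6 recipient skin, 1 rose and 6 fell in F1 graft CD49a+ cells and 0 rose and 6 fell in F1 recipient skin. Of all genes, 12.5% rose and 3.77% fell in B6 graft CD49a+ cells, and 17.9 and 11% in B6 recipient skin. The F1 shares were 18.5 and 4.18% in graft CD49a+ cells and 11.3 and 4.44% in recipient skin. In graft CD49b+ cells 1 fell in B6 (Ikzf1), and 1 rose (Ikzf2) and 1 fell (Tbx21) in F1. There 3.7% of all genes rose and 0.368% fell in B6, and 10.6 and 1.61% in F1. The median changes were -0.75, -1.51 and -1.52 in B6 graft CD49b+, graft CD49a+ and recipient skin cells, and -0.15, -0.71 and -1.18 in F1, while the medians over all genes were above 0. Without the low-leukocyte libraries 23 were tested, and the spread was smaller. In that fit 0 rose and 8 fell in B6 graft CD49b+ cells, and 1 rose and 7 fell in F1 graft CD49b+ cells. In F1 graft CD49a+ cells 2 rose and 9 fell, so the fall was not particular to CD49a+ cells. Where 1 library remained, the median changes were -0.86 in B6 graft CD49a+ cells, -1.30 in B6 recipient skin and -0.86 in F1 recipient skin. The share of all genes is not given for that fit. In the same CD49a+ comparisons with all libraries 8 to 12 of 20 pan-leukocyte transcripts fell, and the part of leukocyte content in these counts was not tested.

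Tbx21, which encodes T-bet, and Eomes are the factors that define NK cells and ILC1. Tbx21 was at 564, 545 and 469 in F1 spleen and 54.1, 33.5 and 53.4 in F1 graft CD49a+ cells (log2 -3.49 ± 0.82, adjusted p = 0.00446), and Eomes was at 125, 99.2 and 115 against 58.3, 7.17 and 62.6 (adjusted p = 0.167). Without the low-leukocyte library Tbx21 changed by -3.59 (adjusted p = 1.32e-05) and Eomes by -2.37 (adjusted p = 0.00644). Ikzf1, which encodes the lymphoid factor Ikaros, changed by -3.98 in B6 graft CD49a+ cells (adjusted p = 0.0017) and by -3.15 in F1 (adjusted p = 0.00495), and without the low-leukocyte libraries by -1.68 and -3.33 (adjusted p = 0.146 and 0.000301). Klf2, which drives expression of tissue exit receptors, was at 46.8, 65.5 and 61.6 in B6 spleen and 15.6, 3.52 and 7.36 in B6 graft CD49a+ cells (log2 -2.77 ± 0.75, adjusted p = 0.0148; -3.69 on library 2 alone, adjusted p = 0.00119). Against these, Ikzf2, which encodes Helios, rose in F1 graft CD49a+ cells to 152, 42.2 and 30.2 from 4.05, 4.63 and 7.46 (log2 3.25 ± 0.97, adjusted p = 0.0174; 3.71 without library 3, adjusted p = 0.0213). It also rose in B6 recipient skin, where it was at 37.6, 139 and 68.4 (adjusted p = 0.0461), but did not pass on library 2 alone (log2 3.54, adjusted p = 0.137).

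Effector and receptor genes of ILC2 and ILC3 were read beside their factors. Of 10 ILC2 genes 7 were tested. In B6, 1 rose in each CD49a+ population, where 12.5% of all genes rose in the graft and 17.9% in recipient skin. In F1, 2, 2 and 1 rose in graft CD49b+, graft CD49a+ and recipient skin cells, and 0 fell in either model. The F1 shares of all genes that rose were 10.6, 18.5 and 11.3%. Counts of 1 of 7 are near these shares, and nothing is read from them about the list. Areg, the growth factor amphiregulin that ILC2 and tissue-resident lymphocytes make, was listed at 0 in all 6 spleen and all 6 blood libraries. It was at 13.8, 48.7 and 12.2 in B6 graft CD49a+ cells and 60.7, 351 and 13.7 in B6 recipient skin, with the highest value in the library with the highest leukocyte level of each group. Areg passed the filter through 9 skin libraries alone and had to differ, so that no p-value is given; it is the 1 gene counted in each B6 population and 1 of those in F1 graft CD49a+ cells. Il1rl1, the IL-33 receptor of ILC2, mast cells and regulatory T cells, rose in all 3 F1 skin populations. In graft CD49a+ cells it was at 64.7, 35.7 and 51.4 against 2.65, 2.04 and 1.02 in spleen (log2 4.15 ± 0.96, adjusted p = 0.00367). Without library 3 the change was 4.12 (adjusted p = 0.013). Il1rl1 passed the filter through 16 skin libraries and 2 circulating ones. Its being tested already required a high skin library, so its rises are a description. Its call in F1 recipient skin was lost without the low-leukocyte libraries (log2 2.43 from 2.78, adjusted p = 0.204).

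Of 8 ILC3 genes 3 were tested, and 0, 2 and 3 rose in B6 and 1, 2 and 2 in F1 in the same order. Of all genes, 3.7, 12.5 and 17.9% rose in B6 and 10.6, 18.5 and 11.3% in F1. With 3 genes tested, these counts are a description. Kit, the stem cell factor receptor of ILC progenitors, ILC3 and mast cells, rose 10.3-fold in B6 recipient skin to 126, 158 and 204 from 24, 23.5 and 5.13 (adjusted p = 0.000651). On library 2 alone the log2 change of Kit was 3.35, from 3.37 (adjusted p = 0.0287). Il1r1, an IL-1 receptor that stromal cells also carry, was at 21.6, 1.5 and 32.4 in B6 recipient skin against 0.426, 0.984 and 0 in spleen, lowest in the library with the highest leukocyte level. Il1r1 passed the filter through 8 skin libraries alone, fell under it without the low-leukocyte libraries, and is 1 of the genes in each count above 0. Il22, an effector cytokine of ILC3, was listed at 0 in all CD49a+ libraries. Il17f, another cytokine gene of the list, is counted in B6 recipient skin and in both F1 CD49a+ populations. It was at 10 or more in 17 skin and 7 circulating libraries. Without the low-leukocyte library, 0 of the 2 ILC3 genes still tested rose in F1 graft CD49a+ cells. Over the whole marker list of ILC2 and ILC3 (8 genes), sums were 15.9 to 121 in skin and 3.25 to 147 in circulating libraries, which overlap. In F1 all graft libraries, at 50.2 to 121, lay above blood and spleen, at 3.88 to 44.7, while recipient skin, at 19.4 to 45.7, overlapped them. B6 skin, at 15.9 to 110, overlapped B6 blood and spleen. Group medians were 27.5 to 76.8 in skin and 7.94 to 16.4 in circulating cells. Il13 was at 0 to 7.22 in every library. The part of other ILCs in the Rora, Gata3 and Ahr values was not tested beyond these levels.

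Over the 30 libraries, the genes whose log2 levels were most like each factor were listed by Pearson's r, as a description only, since the libraries share tissue, leukocyte content and model. Id2 was most like Shisa5 (0.96), Prf1 (0.94), which encodes perforin, and Gimap4 (0.94). Rora was most like Ninj1 (0.88), Prdx6 (0.88) and Sqstm1 (0.87), and Tcf7 like Gpr18 (0.85), Saraf (0.79) and Plekha2 (0.76). Nfil3 was most like Nudt4 (0.80), Tmem2 (0.78) and Olfr874 (0.77), Ets1 like Ptpn2 (0.80), Rps3a1 (0.78) and Apobec3 (0.78), and Gata3 like Polr3a (0.89), Hif1an (0.86) and Pom121 (0.86). The nearest genes to Ahr were Speer4a (0.93), Chic1 (0.91) and Pi15 (0.91), and those to Tox were Abcg1 (0.67), Rab3gap2 (0.66) and St8sia4 (0.64), the loosest of the 8. Among the 8 themselves, Rora with Ahr had an r of 0.69, Rora with Nfil3 0.67, Id2 with Gata3 0.66 and Id2 with Ahr -0.59.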

How the data were processed

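Bulk RNA-seq of 30 sorted NK cell libraries in 10 groups of 3 was analysed. The deposited table holds a normalized signal per gene, which the authors made with Salmon and DESeq2 on GRCm38/mm10, per the submitters' processing notes (versions, annotation and filters: not given in the sources used here). In each library 15 to 21.9% of low values were whole multiples of 1 step (tolerance 0.1), so reads were not recovered, the read depth is unknown, and no count test was run. Sums of the signal are not depth.

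Of 30616 entries 30587 were used: 1 had no name, 27 had symbols turned into dates and 1 held no number. A remark was removed from the symbol Tbx21, the marker Adgre1 was found as Emr1, and 2 numeric columns with no sample were not used. limma 3.58.1 (R 4.3.3) was fitted on log2(signal + 1) with a mean for each group, all libraries sharing 1 spread (robust eBayes with a trend). Genes needed a value of 10 or more in 3 or more libraries, which 16045 had, and Benjamini-Hochberg adjustment ran over these. The threshold was 0.05 in 17 comparisons. Fold changes are on the log2(signal + 1) scale, which understates those of low genes. The steps were tested on simulated data.

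The 8 genes and the lists were chosen with earlier results of these data known, and genes of a list were named by smallest p, up to 3 per list and comparison; values of a few others were given after being seen. Some genes of the lists are not reported here. Same-numbered libraries deviated together, with every correlation of their deviations from the group means over 0.1, in 1 comparison. This was B6 graft CD49a+ against recipient skin, where the lowest correlation was 0.15. In B6 graft CD49a+ against graft CD49b+ cells the correlations were 0.10, 0.40 and 0.09, just short of that limit. The pairing comes from the data and not from the labels, and a block for the number changed no call. Alternatives changed the pseudocount, filter, scaling, weights, libraries and reference. Promoters come from RefSeq (GRCm38.p6). Python 3.11.15, numpy 2.4.6, pandas 2.3.3 and matplotlib 3.10.9 were used.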

Additional observations from a re-analysis of the deposited data

How the results depend on the processing

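The main counts of called factors against spleen were 1, 3 and 4 of 8 in B6 (graft CD49b+, graft CD49a+, recipient skin) and 1, 1 and 3 in F1. The share of all genes called is given above for the main fit only. A count that moves under another setting is therefore not read as a result about the factors. With a pseudocount of 10 the B6 counts were 0 in graft CD49b+ cells and 2 in recipient skin. Quantile normalization gave 0 and 2 there and 1 in F1 recipient skin. Scaling to the same total gave 3 in each F1 graft population, and the leukocyte scale 2 in F1 graft CD49b+ and 3 in graft CD49a+ cells. Library weights gave 3 in B6 graft CD49b+ cells, 3, 4 and 6 in F1, and 1 between circulating cells of the models (Ets1). Fitting only the groups compared gave 1 in B6 graft CD49a+ cells, 0 in B6 recipient skin, 4 and 3 in the F1 grafts and 2 between circulating cells (Ets1 and Id2); Rora then fell under the filter in B6 recipient skin. With blood as the reference the F1 counts were 0 in graft CD49b+ cells and 1 in recipient skin. Without the 7 low-leukocyte libraries the counts were 3, 1 and 1 in B6, 3, 4 and 6 in F1, 2 for F1 graft CD49a+ cells against recipient skin (Gata3 and Tcf7) and 2 for the model difference in recipient skin (Gata3 and Tcf7). Other filters and a replicate block moved no count past 1.5 times. Of 136 gene results the replicate block changed 0 calls, with 4 of 8 called in B6 recipient skin as before.

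Leaving out 1 library at a time gave 0 to 2, 1 to 3 and 2 to 4 factors in B6, 1 to 1, 1 to 2 and 0 to 3 in F1, and 0 to 3 for B6 graft CD49a+ cells against recipient skin; all others gave 0. Direction reversed for Tcf7 in B6 recipient skin on the leukocyte scale (1.91, adjusted p = 0.0291, from -0.08), where genes in skin move up together against spleen. It also reversed for the model difference of Gata3 in recipient skin without low-leukocyte libraries (-3.43 from 0.02), where each model keeps 1 library. The cause was not tested; groups of 3 and the uneven leukocyte content limit what can be detected. A count test was not run because whole reads were not recovered.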
